A study of Mus musculus with 9 samples.

Results

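The data describe 9 genes of the complement system, C3, C4b, Cfb, C1ra, C1s1, Serping1, C2, Cd55 and Cd59a, in poly(A) RNA-seq of cultures that the labels name as RAW264.7, a mouse macrophage-like line of BALB/c origin. The genes were taken by symbol from a table of 56289 genes, and each had exactly 1 row. The 9 libraries fell into 3 groups of 3, which were untreated cultures (Con), cultures given recombinant human TNF-α at 20 ng/ml for 24 h (TNF-α), and cultures given TNF-α together with WBT at 1.0 μg/ml for 24 h (TNF-α+WBT). WBT is a herbal tablet studied for rheumatoid arthritis, and the labels write WBP for the group that the methods call TNF-α+WBT. No group received WBT without TNF-α, so its effect on unstimulated cultures was not measured. The labels named no batch.

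Complement is a cascade of plasma and tissue proteins that marks surfaces for removal and opens pores in membranes. The classical route starts when C1q binds antibody and the proteases C1r and C1s cut C4 and C2, the lectin route starts from sugar-binding proteins with MASP proteases, and the alternative route amplifies both through factor B. All routes meet at C3, whose cleavage yields the opsonin C3b and the anaphylatoxin C3a, and C1 inhibitor (Serping1), CD55 and CD59 hold the cascade back. The liver makes most complement of the plasma, and many other cells, fibroblasts and macrophages among them, make C3 and C1r/C1s when stimulated by cytokines.

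Levels are given as FPKM, fragment counts adjusted for transcript length and library depth, so levels of different genes can be set side by side per length. Depth was estimated at 17152348 to 26067650 fragments per library from the smallest steps between low values. All 12 genes that every cell uses exceeded 1 FPKM throughout. Of 18 macrophage markers only Cd14 did, and 7 defining ones, the lineage factor Spi1, the leukocyte antigen Ptprc and Adgre1 among them, had a listed 0 in each library, which goes against the labelled cell type. In contrast, 12 of 18 fibroblast markers and 8 of 12 Schwann cell markers exceeded 1 FPKM in all 9, and none of 8 hepatocyte markers did. The summed macrophage markers lay at 6.53 to 7.87 FPKM in Con, 8.47 to 9.35 in TNF-α and 8.62 to 9.83 in TNF-α+WBT. The summed Schwann cell markers lay at 857 to 918, 700.2 to 759 and 758 to 790 FPKM in the same order, and the summed fibroblast markers overlapped between the groups (5433 to 6005 FPKM over all 9). Single fibroblast markers moved in both directions, with all TNF-α libraries above all Con libraries for 4 of the 18 (Col1a1 at 1004 to 1021 against 791 to 901 FPKM) and below them for 5 (Postn at 156 to 165 against 235 to 253 FPKM). Of all tested genes 11.1% were above in this way, and the share below was not computed. The part of these cell type differences in the results below was not tested, and in RNA from whole cultures fewer cells of a type and less RNA per cell cannot be told apart. The cells are therefore called cultures here.

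Sequence of the gene starts is shown first for C3, C1ra and C1s1, members that rose under TNF-α, and for C1rb, a close copy of C1ra. RefSeq start windows for GRCm38.p6, from 250 bases before to 50 bases after a start, held 5 of the 9 members (C3, C1ra, C1s1, Cd55 and Cd59a). The 250 bases before the C3 start, chr17:57228137-57228386 on the minus strand, lay outside annotated exons and held a single match to the letters TTGCNNAA, read on both strands as the core that C/EBP factors, mediators of acute-phase transcription, can bind. That match, in capitals, began 45 bases before the start.

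C3: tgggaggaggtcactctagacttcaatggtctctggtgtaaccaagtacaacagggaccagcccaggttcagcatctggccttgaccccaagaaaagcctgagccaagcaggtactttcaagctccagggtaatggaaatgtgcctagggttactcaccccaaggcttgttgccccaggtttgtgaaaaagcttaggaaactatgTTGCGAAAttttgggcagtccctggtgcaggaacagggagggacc

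The genes C1ra and C1rb, which lie in 1 cluster with C1s1 between them, shared a pair of matches, a C/EBP core followed by the interferon-type letters TTCNNNGAA, at the same spacing. The pair began at base 17 counted from the C1ra start and at base -135 counted from the C1rb start. Of the 31-base words in the C1ra transcript 56.9% also occur in C1rb, so the pair cannot be counted as independent matches. In C1ra, 30 bases at chr6:124512635-124512664 on the plus strand lay inside its annotated first exon, and in C1rb, 29 of the 30 bases at chr6:124570293-124570322 on the plus strand lay inside its exon. The farther C1s1 start had a C/EBP core 242 bases upstream, in 30 bases at chr6:124542580-124542609 on the minus strand outside its exons. The nearer C1s1 start and the start of C1s2, a gene that also rose, held no match to these letters. Cfb, which rose too, had no start window. Capitals mark the matches.

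C1ra: gtTTATGCAAatgcttcaTTCCCTGAAaca
C1rb: ctTTATGCAAatgcttcaTTCCCTGAAaca
C1s1: agagagaaTTAGGCAAtctcaaaattcccc

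Such matches are common. The C/EBP core was present in 10.8% of 32851 start windows of the same 300 bases and TTCNNNGAA in 8.30%. Of the other letters searched, TATAAA on the coding strand (8.32% of windows) occurred 15 bases after the C3 start, and TTCNNTTTC on either strand (8.56%) occurred in the Cd59a window. The NF-κB consensus was found in 8.46% of all windows and in none of those of C3, C1ra, C1rb, C1s1, C1s2, Cd55 or Cd59a, which says only that these letters were not in these windows.

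C3, the component on which all routes converge, had the largest change of the 7 members that could be tested. C3 (ENSMUSG00000024164, chr17:57203970-57228136 on the minus strand of GRCm38) measured 8.68, 9.52 and 8.11 FPKM in Con, 164, 174 and 161 FPKM in TNF-α, and 138, 153 and 135 FPKM in TNF-α+WBT. All TNF-α libraries lay above all Con libraries, and the TNF-α+WBT libraries lay between the other groups without overlapping either. The mean rose from 8.77 ± 0.709 to 167 ± 6.84 FPKM (SD, n = 3), a log2 difference of 4.23 ± 0.07 (SE; limma on log2(FPKM + 0.1), adjusted p = 4.01e-08), or 18.8-fold. In estimated fragments, the Con libraries held 849 to 1136 and the TNF-α libraries 15553 to 19622, so counting error was small at both levels.

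Among the 12684 tested genes that averaged 1 FPKM or more, C3 held place 4 by log2 difference, and among all 25417 tested genes place 1 by p. By the gain in FPKM, 158 FPKM, it held place 6. C3 made up 15.8 to 18.9% of the summed FPKM of the 9 members in Con and 65.0 to 66.9% in TNF-α. The full-length coding transcript C3-201 carried at least 97.2% of the C3 level in every library.

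With WBT, C3 was lower than with TNF-α alone in every library, at 142 ± 9.56 against 167 ± 6.84 FPKM (SD, n = 3). The log2 difference was -0.23 ± 0.07 (SE), with a 95% interval of -0.39 to -0.08, and the means differed by -14.8%. Its unadjusted p of 0.00876 did not pass the correction over all genes (limma, adjusted p = 0.645, 0.275 to 0.797 over 20 alternative settings). Groups that do not overlap in the lower direction were seen for 5.61% of all tested genes in this comparison, and an exact two-sided permutation test of 3 against 3 libraries cannot give a p below 0.1, the value obtained for C3. Against Con, C3 in TNF-α+WBT was still 16.01-fold higher (log2 difference 4.001 ± 0.07 SE, limma adjusted p = 6.46e-08), and the gain over Con was 133 FPKM.

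**Figure D1:**
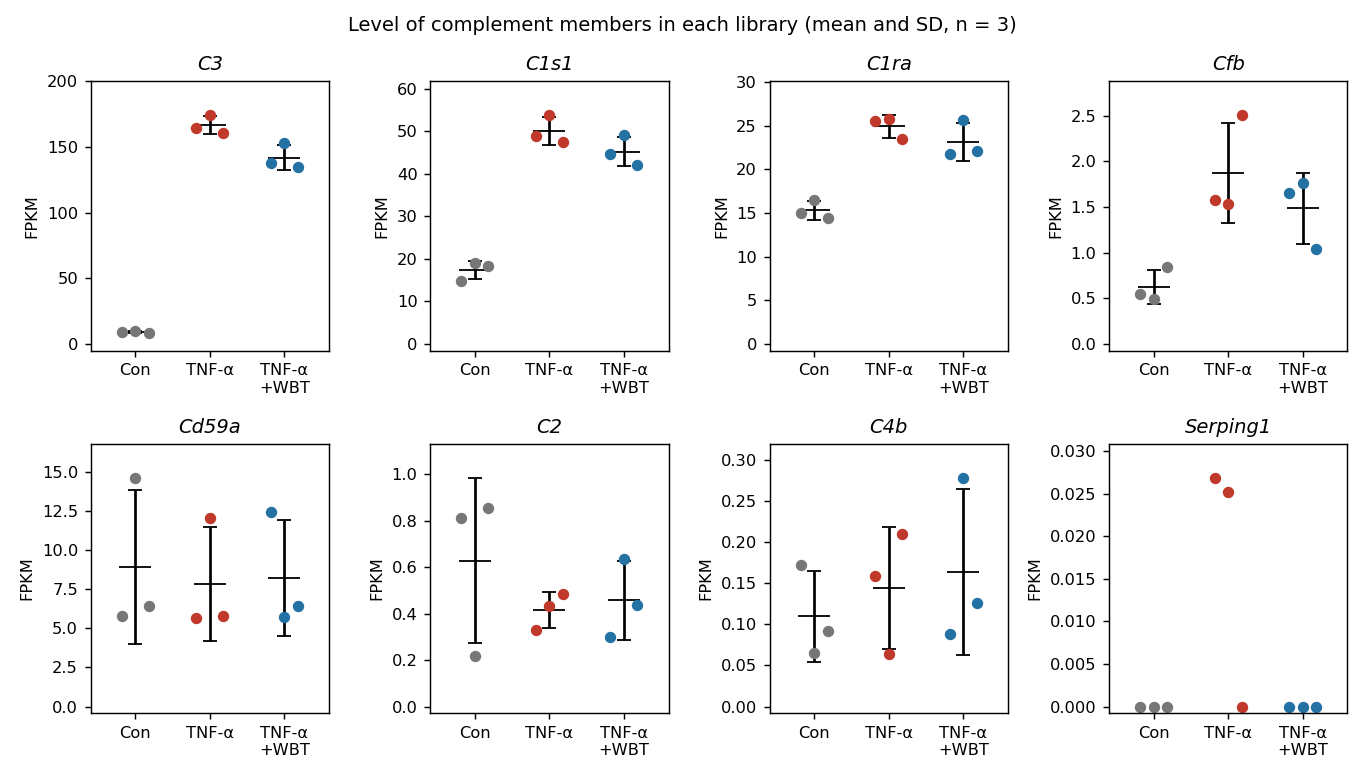
Level in FPKM (y axis, linear, a scale for each gene) of 8 of the 9 members in each library, by group (x axis), with points for libraries and a line and bars for the mean and SD of 3 libraries, left out for Serping1, which was at 0 in 7 libraries. Cd55 was at 0 in all 9 and is not drawn. C3 sat between 161 and 174 FPKM with TNF-α against 8.11 to 9.52 in Con, and Cd59a had 1 high library in each group.

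Of the 9 members, 7 could be tested, and 4 of them (C3, C1s1, C1ra and Cfb) rose with TNF-α at an adjusted p under 0.05, while none fell. Over all 25417 tested genes, 2.94% were called higher in this comparison. Groups did not overlap for the same 4 members, with the TNF-α libraries higher, against 11.1% of all tested genes. The median log2 difference of the 7 was 0.70, beside 0.003 over all tested genes. Serping1 and Cd55 were above 0 in too few libraries to be tested, so these counts do not cover all 9 members.

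C1s and C1r are the paired serine proteases that ride on C1q and cut C4 and C2. C1s1 (ENSMUSG00000038521, chr6:124530345-124542359, minus strand) measured 14.8, 19.0 and 18.3 FPKM in Con, 49.0, 53.8 and 47.4 FPKM in TNF-α, and 44.6, 49.0 and 42.1 FPKM in TNF-α+WBT. The TNF-α libraries were all above the Con libraries and overlapped those with WBT. The mean rose from 17.3 ± 2.20 to 50.0 ± 3.31 FPKM (SD, n = 3), a log2 difference of 1.53 ± 0.10 (SE, limma adjusted p = 5.14e-05).

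C1ra (ENSMUSG00000055172, chr6:124512405-124523443, plus strand) measured 15.0, 16.5 and 14.4 FPKM in Con, 25.5, 25.8 and 23.5 FPKM in TNF-α, and 21.7, 25.7 and 22.1 FPKM in TNF-α+WBT. The order of the group means was that of C1s1, and the log2 difference of TNF-α against Con was 0.70 ± 0.08 (SE, limma adjusted p = 0.00133). C1s1 stood at 0.988 to 1.27 times the C1ra level in the Con libraries and at 1.92 to 2.08 times in the TNF-α libraries, ratios per length that did not overlap and were not tested. With WBT the ratio was 1.90 to 2.05.

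Neither protease gene passed the test when cultures with WBT were set against TNF-α alone. The log2 difference of C1s1 was -0.15 ± 0.10 (SE; 95% interval -0.37 to 0.08, limma adjusted p = 0.865), and that of C1ra was -0.11 ± 0.08 (SE; 95% interval -0.29 to 0.07, limma adjusted p = 0.877). Both remained above Con in the presence of WBT, C1s1 by 1.38 ± 0.10 (SE, limma adjusted p = 0.000110) and C1ra by 0.59 ± 0.08 (SE, limma adjusted p = 0.00390) on the log2 scale.

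C1ra and C1s1 each have a close copy in the same cluster on chromosome 6, in the order C1ra, C1s1, C1rb and C1s2, and the copies rose as well. C1rb measured 3.84, 3.96 and 3.23 FPKM in Con and 5.89, 5.95 and 5.40 in TNF-α, a log2 difference of 0.63 ± 0.09 (SE, limma adjusted p = 0.00563). C1s2 measured 1.42, 1.22 and 0.967 FPKM in Con and 3.18, 3.38 and 2.82 in TNF-α, a log2 difference of 1.32 ± 0.15 (SE, limma adjusted p = 0.00141). The groups did not overlap for either. Of the 31-base words in the C1ra transcript 56.9% also occur in C1rb, and 33.5% of those in C1s1 transcripts occur in C1s2, so fragments could be divided between each gene and its copy and the levels of the 4 genes are uncertain to that extent.

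Within 200 kb of this cluster, 23 other genes were tested for TNF-α against Con. Of these, 2 were called higher, both chosen for naming after their values were seen. Over all tested genes, 2.94% were called higher and 1.93% lower. C1rl, a gene for a C1r-like protease, rose from 3.49 to 5.04 FPKM (log2 difference 0.52 ± 0.08 SE, limma adjusted p = 0.00627), and Gm18840 rose from 3.86 to 6.91 FPKM (log2 difference 0.82 ± 0.12 SE, limma adjusted p = 0.00422). Around C3, 0 of 13 tested neighbours within the same distance were called higher and 2 were called lower, Tubb4a (a β-tubulin) at -1.08 ± 0.09 and Slc25a23 (a mitochondrial carrier) at -0.28 ± 0.05 (log2 difference ± SE, limma adjusted p = 0.000255 and 0.0106). Around the stretch from C4b to C2, which holds Cfb, 43 neighbours were tested, and 3 were called higher and 1 lower.

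Factor B is the alternative-route counterpart of C2 and pairs with C3b in the amplifying convertase. Cfb (ENSMUSG00000090231, chr17:34856374-34862518, minus strand) measured 0.547, 0.491 and 0.838 FPKM in Con, 1.57, 1.54 and 2.50 FPKM in TNF-α, and 1.65, 1.76 and 1.04 FPKM in TNF-α+WBT. Con lay below both other groups in every library, and these overlapped each other. The log2 difference of TNF-α against Con was 1.44 ± 0.29 (SE, limma adjusted p = 0.0248).

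This call rested on few fragments, an estimated 28.1 to 39.2 in the Con libraries and 69.4 to 95.8 in the TNF-α libraries. It was lost, with the difference still positive, when any of Con replicate 1, Con replicate 2 or the 3 TNF-α replicates was left out, with log2 differences of 1.22 to 1.64 over all 9 such fits and adjusted p up to 0.0871. With WBT, Cfb was 1.13 ± 0.29 (SE) above Con on the log2 scale, which did not pass (limma adjusted p = 0.0797), and -0.31 ± 0.29 (SE; 95% interval -0.97 to 0.34, limma adjusted p = 0.901) from TNF-α alone.

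C2 and C4 form the classical C3 convertase, and neither C2 nor C4b, the C4 gene among the members, reached 1 FPKM. C2 (ENSMUSG00000024371, chr17:34862604-34898265, minus strand) measured 0.811, 0.218 and 0.854 FPKM in Con, 0.331, 0.431 and 0.484 in TNF-α, and 0.298, 0.635 and 0.436 in TNF-α+WBT, at most an estimated 13.3 fragments in any library. The groups overlapped. A pair of processed transcripts at the upstream end of the gene took 46.6 to 95.3% of this level, while the main coding transcript C2-201 was at most 0.0811 FPKM.

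Exons of C2 overlap the antisense gene Zbtb12 by 161 bases, and Zbtb12 averaged 10.6 FPKM. The library kit was not stated to keep strand, so reads of the 2 genes cannot be told apart there. The log2 difference of C2 was -0.35 ± 0.44 (SE) for TNF-α against Con, and 0.08 ± 0.44 (SE) for TNF-α+WBT against TNF-α (limma adjusted p = 0.788 and 0.997). The first value ranged from -0.87 (without Con replicate 2, unadjusted p = 0.0253, adjusted p = 0.238) to -0.08 (without Con replicate 3) when a library was left out.

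C4b (ENSMUSG00000073418, chr17:34728380-34743882, minus strand) measured 0.172, 0.0654 and 0.0912 FPKM in Con, 0.158, 0.0644 and 0.209 in TNF-α, and 0.0877, 0.278 and 0.125 in TNF-α+WBT, at most an estimated 7.68 fragments. Between 61.4 and 100% of it was assigned to a retained-intron transcript at the 3′ end of the gene, and the coding transcript C4b-201 was at most 0.0385 FPKM. The log2 difference of TNF-α against Con was 0.20 ± 0.35 (SE, limma adjusted p = 0.857, 0.0084 to 0.46 on the log2 scale with a library left out), and that of TNF-α+WBT against TNF-α was 0.09 ± 0.35 (SE, limma adjusted p = 0.990). A change in the level of the whole C4b gene was therefore not detectable at this depth. C4b-201 alone was at 0 to 0.00688 FPKM in Con, 0.0176 to 0.0252 in TNF-α and 0.0152 to 0.0385 in TNF-α+WBT. Con thus lay below both other groups, but at levels of very few fragments, and this was not tested.

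The copy C4a, annotated as a processed transcript gene, was listed higher than C4b, at 1.28 to 3.15 FPKM over the 9 libraries, with overlapping groups. Of the 31-base words of C4b transcripts 48.3% also occur in C4a, so the split between them is uncertain. C4a differed by 0.19 ± 0.24 (SE, limma adjusted p = 0.792) with TNF-α against Con on the log2 scale.

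Of the 3 regulators among the members, only Cd59a could be tested, and it was not called. Serping1 (ENSMUSG00000023224, chr2:84765387-84775444, minus strand), the inhibitor of C1r and C1s, was at 0 in 7 libraries and at 0.0268 and 0.0252 FPKM in TNF-α replicates 1 and 2, about 1 fragment each. Cd55 (ENSMUSG00000026399, chr1:130439027-130462744, minus strand), which speeds the decay of convertases on the cell surface, was listed at 0 in all 9 libraries, as was its copy Cd55b. A listed 0 allows up to 3 fragments per library, counting error only, so expression below that was not measurable.

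Cd59a (ENSMUSG00000032679, chr2:104095801-104115354, plus strand), which blocks the final pore, was the expressed membrane regulator among the members. It measured 5.78, 14.6 and 6.43 FPKM in Con, 5.67, 12.1 and 5.79 FPKM in TNF-α, and 12.4, 5.73 and 6.40 FPKM in TNF-α+WBT. A single library of each group stood at 12.1 to 14.6 FPKM and the other 6 at 5.67 to 6.43 FPKM, so the spread lay within the groups. The log2 difference was -0.15 ± 0.45 (SE) for TNF-α against Con, and 0.07 ± 0.45 (SE) for TNF-α+WBT against TNF-α (limma adjusted p = 0.928 and 0.998), and both changed sign when a library was left out.

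The 3 high libraries also differed in how Cd59a was divided among its transcripts. In Con replicate 2, TNF-α replicate 2 and TNF-α+WBT replicate 1 the processed transcript Cd59a-202 was at 0, and in the other 6 it was at 0.0984 to 0.659 FPKM. Cd59a-201, a coding transcript, carried at least 97.2% of the gene in the high libraries and 63.3 to 90.7% in the others. The other coding transcript, Cd59a-203, took 35.1% in Con replicate 3 and 19.8% in TNF-α+WBT replicate 2, and at most 2.82% elsewhere. The copy Cd59b was at 0.135 to 0.422 FPKM.

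**Figure D2:**
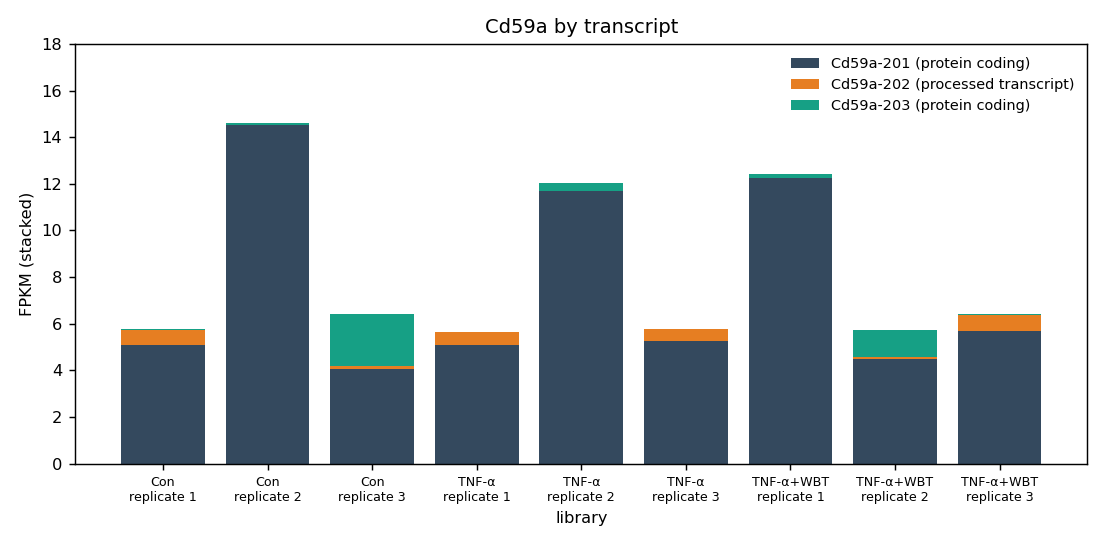
FPKM of the 3 annotated Cd59a transcripts, stacked (y axis), in each of the 9 libraries (x axis). The 3 libraries above 12 FPKM show no segment for the processed transcript Cd59a-202, which is present in each of the other 6.

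The members thus took a different order in the groups. In Con, C1s1 (17.3 FPKM) and C1ra (15.3 FPKM) led and overlapped each other, and Cd59a (8.93 FPKM) and C3 (8.77 FPKM) followed and overlapped each other, with the highest Cd59a library reaching the C1ra range. With TNF-α the order was C3 (167 FPKM), C1s1 (50.0 FPKM), C1ra (24.9 FPKM) and Cd59a (7.84 FPKM), with no overlap between neighbours. Cfb, C2 and C4b lay below these in both groups.

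Of a wider list of 54 complement genes, which includes the members, 15 were above 1 FPKM in all 9 libraries and 19 were at 0 in all 9. With TNF-α, 8 of the 31 tested genes rose and 0 fell (limma, adjusted p under 0.05), against 2.94% and 1.93% of all tested genes. At an unadjusted p under 0.05, 9 were higher and 2 lower, and limma-voom on estimated fragments called 8 higher and 1 lower. The shares of all tested genes under these other rules were not computed, so these counts have no background to be set against. The median log2 difference of the 31 was 0.07. Outside the members, 24 genes were tested and 4 were called, namely C1rb, C1s2, Itgb2 and Clu. C1rb and C1s2 share sequence with the members C1ra and C1s1, as given above. Of the 24, 12 had a positive and 12 a negative log2 difference, with a median of 0.01, beside 0.003 over all tested genes.

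Among 19 genes of classical and lectin initiation, 12 were tested and 4 rose, the C1r and C1s genes described above, against 2.94% of all tested genes. C1qa, C1qb and C1qc, the recognition subunits that carry C1r and C1s, were listed at 0 in all 9 libraries. Masp1, a protease of the lectin route, stood at 26.4 to 32.1 FPKM with a log2 difference of 0.17 ± 0.05 (SE) that did not pass (limma adjusted p = 0.125), and the scavenger lectin Colec12 stood at 36.9 to 43.0 FPKM with -0.14 ± 0.04 (SE, limma adjusted p = 0.0758). Among 4 genes of the alternative route, C3 and Cfb rose, and properdin (Cfp), which stabilizes its convertase, was at 4.19 to 5.80 FPKM with overlapping groups.

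Of the 7 terminal genes, which form the membrane pore, C6, C7, C8a and C8b were at 0 in all 9 libraries, Hc (the gene of C5) was at most 0.0327 FPKM, and C8g was at 0.818 to 1.72 FPKM. None of the 2 tested passed. Of the 9 receptor genes, the receptor of C5a, C5ar1, was at 0 in all 9, and that of C3a, C3ar1, was above 0 in a single library, at 0.0234 FPKM.

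Itgb2, the shared β2 chain of complement receptors 3 and 4, rose from 1.26, 1.81 and 1.34 FPKM in Con to 2.85, 2.45 and 2.72 in TNF-α (log2 difference 0.84 ± 0.17 SE, limma adjusted p = 0.0287). Its partner Itgam was at 0 in all 9 libraries and Itgax was at most 0.0147 FPKM. The call was lost when Con replicate 1, Con replicate 3 or any TNF-α replicate was left out, with log2 differences of 0.74 to 0.99 and adjusted p up to 0.101 over the 9 such fits.

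Among 8 soluble regulators, 4 were tested and 1 rose, against 2.94% of all tested genes. Clusterin (Clu), a secreted chaperone that also blocks the terminal complex, measured 150, 160 and 156 FPKM in Con and 168, 178 and 172 in TNF-α, a log2 difference of 0.16 ± 0.04 (SE, limma adjusted p = 0.0472). This call was lost in 15 of 20 alternative settings, all 9 that left out a library among them, and the difference was positive in all 20.

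Of 7 membrane regulators, 5 were tested and 0 passed (limma), with 0 at an unadjusted p under 0.05. Cr1l, the rodent regulator also known as Crry, was at 15.4 to 20.4 FPKM and Cd46 at 2.18 to 3.28 FPKM. Their log2 differences were 0.17 ± 0.11 and 0.07 ± 0.15 (SE, limma adjusted p = 0.525 and 0.882).

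**Figure D3:**
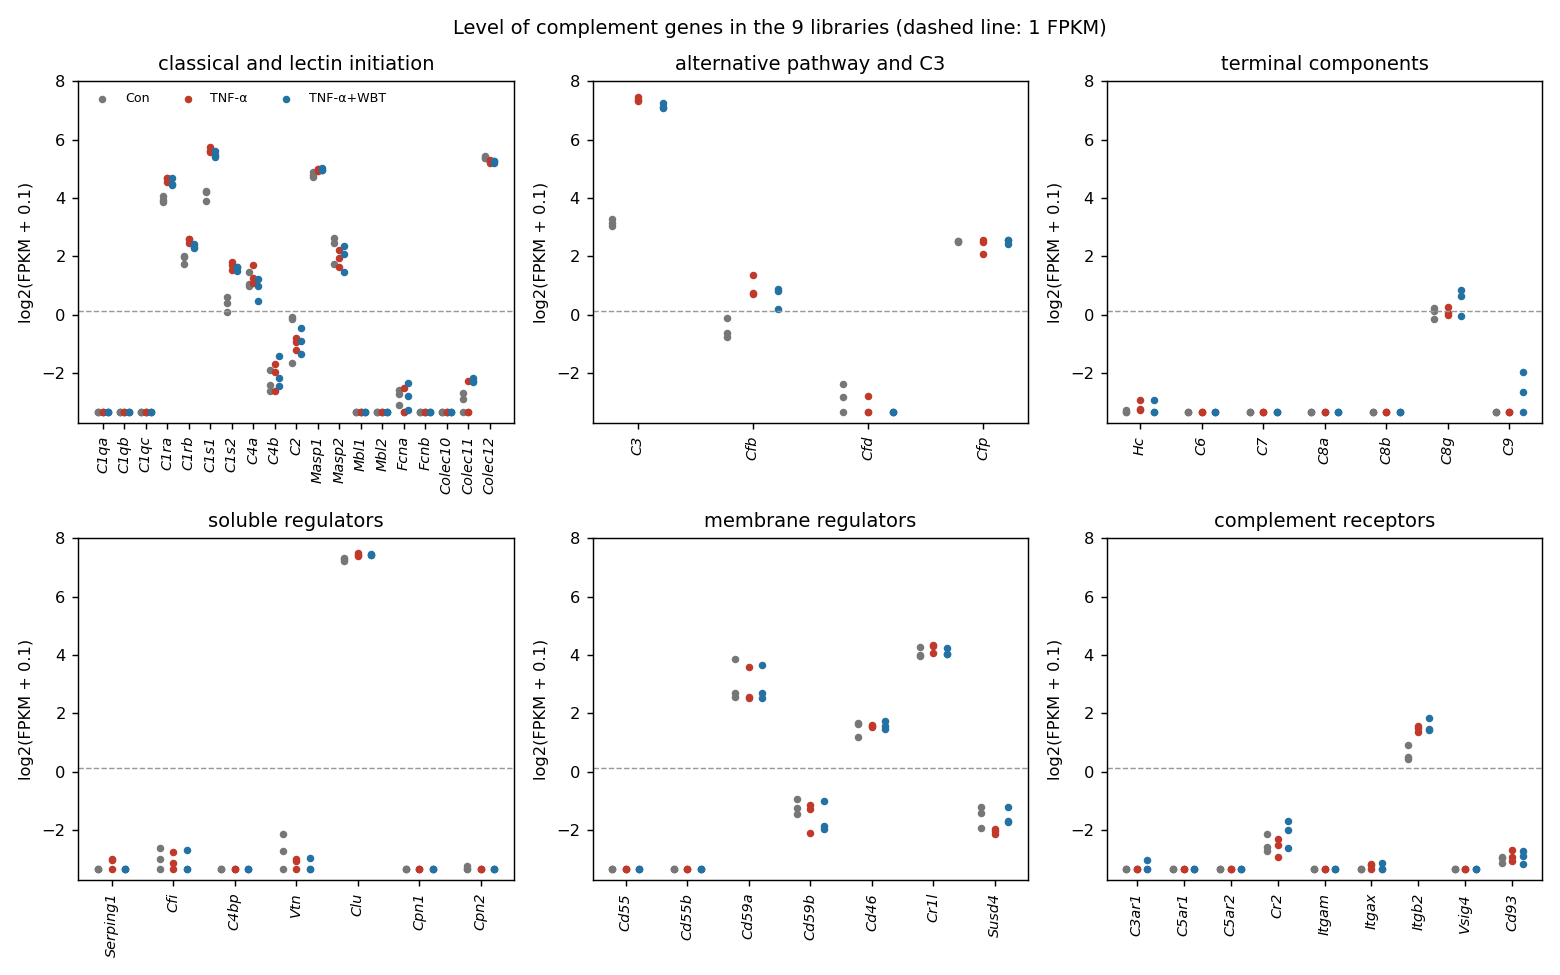
Level of 53 of the complement genes as log2(FPKM + 0.1) (y axis) in the 9 libraries, in panels by role, with points coloured by group and a dashed line at 1 FPKM. C3, C1s1 and C1ra are among the genes whose Con points lie below those of both TNF-α groups, as are Cfb, C1s2, C1rb and Itgb2. The C1q genes and most terminal genes lie at or near the floor that marks 0 FPKM.

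When TNF-α+WBT was compared with TNF-α, 0 of the 7 tested members and 0 of the 31 tested genes of the wider list were called by limma, against 0.00393% of all tested genes (1 gene). At an unadjusted p under 0.05 there was 1 member, C3, and 2 genes of the wider list, C3 and Colec11, a lectin that was at most 0.123 FPKM. Limma-voom on estimated fragments also called 0 in both lists. Of the 7 tested members, 4 had a negative and 3 a positive log2 difference, with a median of -0.11, beside -0.002 over all tested genes. Over the 31 genes, groups did not overlap for 2 lower genes, C3 and C1rb, against 5.61% lower over all tested genes. Groups were also apart for 1 higher gene, Susd4, a membrane regulator named after its values were seen. Shares over all tested genes for the higher direction and for an unadjusted p under 0.05 were not computed. The log2 difference was -0.19 ± 0.09 (SE, limma adjusted p = 0.816) for C1rb and 0.49 ± 0.26 (SE, limma adjusted p = 0.821) for Susd4, which was at most 0.340 FPKM.

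When TNF-α+WBT was compared with Con, which shares its libraries with the comparisons above, 3 members (C3, C1s1 and C1ra) and 6 genes of the wider list were called higher and 0 lower, against 2.31% higher and 1.40% lower of all tested genes. The other 3 genes of the wider list were C1rb, C1s2 and Itgb2, with log2 differences of 0.45 ± 0.09, 1.22 ± 0.15 and 0.96 ± 0.17 (SE, limma adjusted p = 0.0378, 0.00268 and 0.0183). The C1rb call was lost whichever of the 9 libraries was left out, with log2 differences of 0.36 to 0.50. The Itgb2 call was lost without Con replicate 1, Con replicate 3 or TNF-α+WBT replicate 2, with 0.83 to 1.11 over the 9 such fits.

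**Figure D4:**
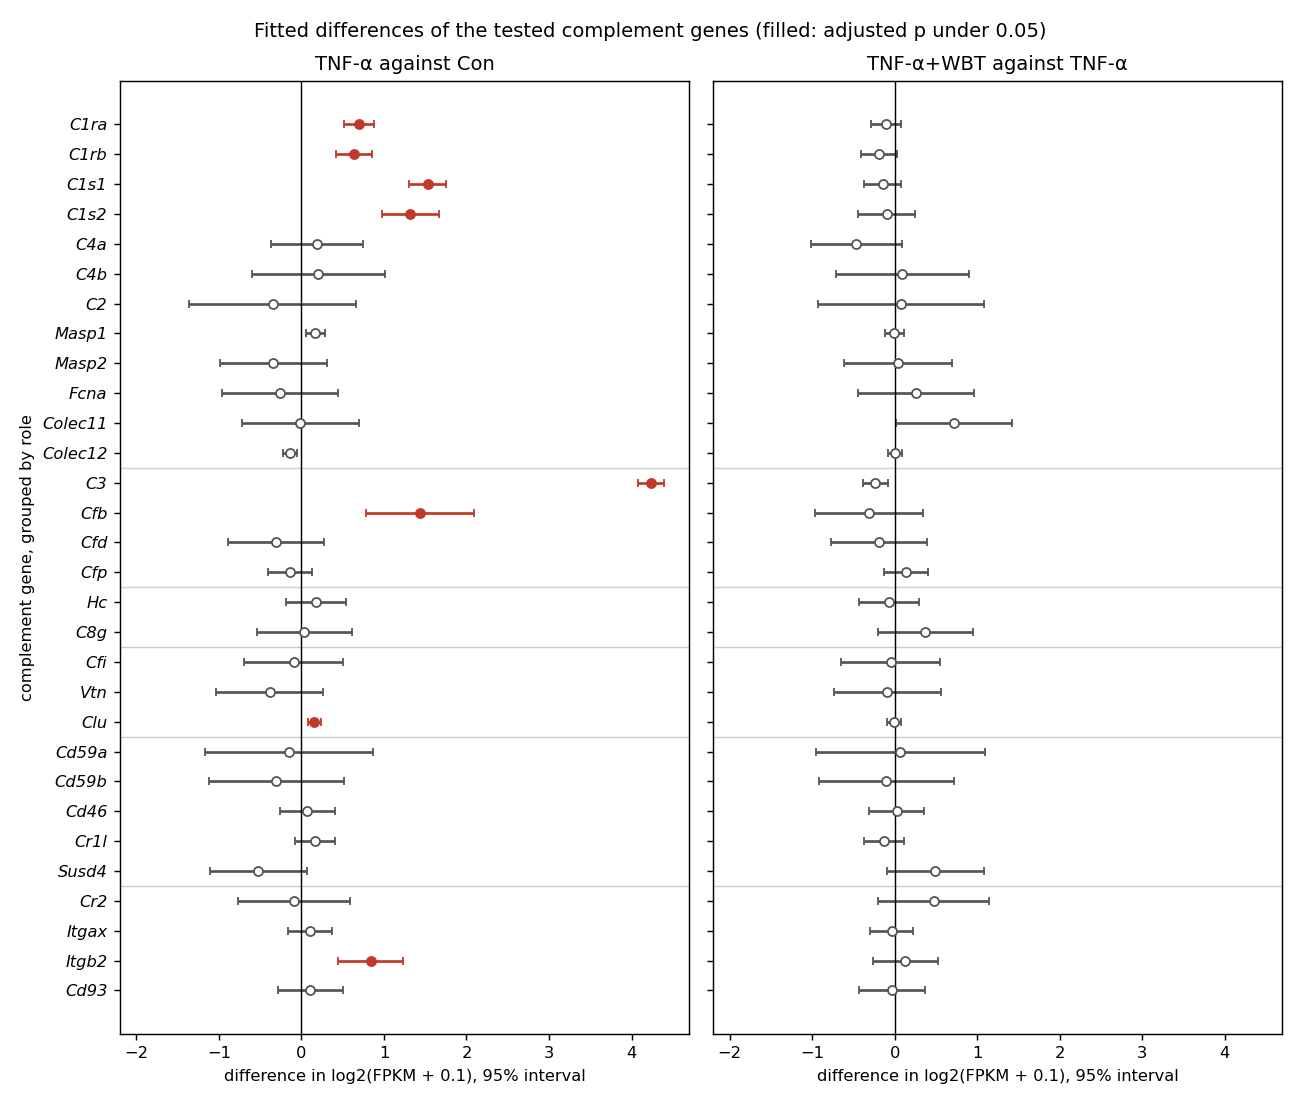
Difference in log2(FPKM + 0.1) with its 95% interval (x axis) for 30 of the tested genes of the wider list (y axis, by role), for TNF-α against Con (left) and TNF-α+WBT against TNF-α (right), with filled red points for an adjusted p under 0.05. On the left 8 points are filled, all above 0 and led by C3 at 4.23, and on the right none is.

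The genes whose pattern over the 9 libraries was most like that of C3 were found by Pearson's r of log2(FPKM + 0.1) among 12683 genes that averaged 1 FPKM or more. This is a description, since the libraries share their 3 groups. The 5 were H2-Q4, a class I histocompatibility gene (r = 0.999), Tmem176a, a membrane protein gene (r = 0.999), B2m, the light chain of class I molecules (r = 0.998), the chemokine gene Cxcl1 (r = 0.998) and the metalloreductase gene Steap4 (r = 0.998). H2-Q4 went from 12.2 ± 0.896 FPKM in Con to 49.1 ± 0.894 in TNF-α and 43.7 ± 1.57 in TNF-α+WBT (SD, n = 3), and Cxcl1 from 1.37 ± 0.148 to 10.4 ± 0.987 and 8.89 ± 0.241. C1s1 followed at place 58 (r = 0.989) and C1ra at place 176 (r = 0.968).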

How the data were processed

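Poly(A) RNA of 9 cultures was sequenced as paired-end libraries. The authors deposited FPKM values for 56289 genes and 144726 transcripts, which the study's scheme traces to HISAT2, StringTie and Ballgown. Versions and the genome build are not given in the sources used here. Positions were taken from GENCODE M21 (GRCm38), in which 98.0% of gene IDs had a symbol, and start windows from RefSeq. The sample labels gave the groups, and the results text of the study calls the libraries biological replicates.

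Genes with a value above 0 in 3 or more libraries were compared on log2(FPKM + 0.1), which understates changes of low genes, with limma 3.58.1 in R 4.3.3 (a mean per group over all 9 libraries, eBayes with an intensity trend) and Benjamini-Hochberg adjustment over all tested genes. Calls had an adjusted p under 0.05. Fragments were estimated from single-transcript genes longer than 1000 bases. Between 53.7 and 58.8% of low values came within 0.1 of a whole fragment, where 20% would with no steps, so fragments are approximate. Tables were handled in Python 3.11.15 with pandas 2.3.3 and numpy 2.4.6, exact permutation tests used scipy 1.17.1, and figures matplotlib 3.10.9. The model was tested on simulated data. The members, gene lists and marker lists were chosen with earlier results of these data known. All members were named, and of the wider list those with an adjusted p under 0.05 in any comparison, the C1q genes, C3ar1, C5ar1, Hc and the copies of members, with the 5 genes most like C3. Other genes with values were named after these were seen. Of the wider list, 1 gene is counted but not reported here by name.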

Additional observations from a re-analysis of the deposited data

How the results depend on the processing

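Each count of called genes and each log2 difference of the tested members and called genes was recomputed under 20 alternatives, 9 of which left out a library. The count of members called for TNF-α against Con was 3 or 4 under all of them, that for TNF-α+WBT against Con 3 or 4, and that for TNF-α+WBT against TNF-α 0. The wider count of 8 for TNF-α against Con ranged from 5 to 7 with a library left out, and C3, C1s1, C1ra, C1s2 and C1rb were called in each of these fits. With the replicate number as a block it was 5 for the wider list and 3 for the members, with Cfb, Itgb2 and Clu lost. Same-numbered libraries did not deviate together (0 of 9 pairs over a correlation of 0.1, -0.07 to 0.10), and 3 of 9 libraries correlated best with their own number, so the numbers were taken not to pair the samples. The log2 difference of C3 was 4.10 to 4.29 for TNF-α against Con and -0.29 to -0.20 for TNF-α+WBT against TNF-α. Of 654 gene values under alternatives, 44 lost a call, 2 gained one and 17 changed sign, none of the last for a called difference. All sign changes came with a library left out. For TNF-α against Con these were Cd59a (-0.50 to 0.27). For TNF-α+WBT against TNF-α they were Cd59a (-0.27 to 0.42), C4b (-0.20 to 0.31), C2 (-0.15 to 0.30), Clu (-0.0255 to 0.0156) and Itgb2 (-0.00747 to 0.20). For TNF-α+WBT against Con they were Cd59a (-0.42 to 0.33) and C2 (-0.79 to 0.00131). The calls gained were Cfb and Clu for TNF-α+WBT against Con when only genes averaging 1 FPKM or more were tested, a setting with fewer genes. The wider count of 6 for that comparison ranged from 4 to 8. The limit for a listed 0 covers counting error only, and the division of fragments between gene copies was not tested. C4b, C2, Serping1 and Cd55 were too low to show a change in the level of the whole gene.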
